A study of Homo sapiens with 18 samples.

Results

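The genes described here are the 85 cytosolic ribosomal protein genes found among the 17561 genes listed in at least 1 of the study's 3 tables. They were chosen by symbol, as the genes named RPL or RPS with a number, the stalk genes RPLP0, RPLP1 and RPLP2, and RPSA, without pseudogenes, ribosomal protein S6 kinases, readthrough genes and Y-linked copies. Of these genes, 77 code for core ribosomal proteins, 46 of the large subunit and 31 of the small subunit. The other 8 are paralogs that are expressed at a lower level or in few tissues (RPL3L, RPL10L, RPL7L1, RPL22L1, RPL26L1, RPL36AL, RPL39L and RPS27L). All 85 were listed in BL-41 and Jiyoye and 84 in Namalwa, where RPL10L was missing, and 83 had a mean of the arms of at least 100 in each line. The paralogs RPL3L and RPL10L were the members below that mean.

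The study reduced the transcription factor FOXO3 in BL-41, Namalwa and Jiyoye, established cell lines of Burkitt lymphoma, a B cell cancer. Namalwa and Jiyoye carry Epstein-Barr virus and BL-41 does not. In each line a lentiviral vector carrying the TagRFP marker and a U6 promoter delivered either an shRNA against FOXO3 or a scrambled control shRNA, and transduced cells were isolated by sorting on day 4. With 3 libraries for each of 6 groups, the series has 18, and the controls carried the vector and a hairpin as well. The labels call the libraries triplicates without naming separate cultures, so p-values reflect no more than the variation among these libraries, possibly technical. No SD is given, because the deposited tables hold 1 value per arm and none per library, and each standard error (SE) was derived from the deposited fold change with its p. Fold changes are on the log2 scale, positive where the FOXO3 shRNA arm was higher, and a gene is said to have risen or fallen where the authors' DESeq2 adjusted p was under 0.05. In bulk RNA, a changed share of cells in 1 state and a changed amount of transcript per cell cannot be told apart.

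Ribosomal proteins assemble with ribosomal RNA into the small subunit, which reads the messenger RNA, and the large subunit, which joins amino acids. Most of the proteins are needed in equal amounts, and most of those made in excess are quickly degraded. Their messages typically begin with a C followed by a run of pyrimidines, the 5' terminal oligopyrimidine (TOP) tract, through which mTOR signalling sets their translation. RPL5 and RPL11, free of the ribosome, bind MDM2 and so link ribosome assembly to p53. MYC, the oncogene activated in Burkitt lymphoma, is known to drive ribosome production.

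FOXO3 itself was lower in the FOXO3 shRNA arm, and the fall passed the test in BL-41 and Namalwa. The authors' deposited table gave FOXO3 in BL-41 a scrambled value of 944.5 and a knockdown value of 544.7, with a log2 fold change of -0.79 (SE 0.139, DESeq2 adjusted p = 3.15e-07). For Namalwa the authors' deposited table gave FOXO3 850.5 and 398.4, with a log2 fold change of -1.09 (SE 0.159, DESeq2 adjusted p = 2.49e-09). For Jiyoye the authors' deposited table gave FOXO3 471.2 and 384.0, and the log2 fold change of -0.30 was not called (SE 0.152, DESeq2 adjusted p = 0.187). Results in Jiyoye therefore rest on the library label, without a called fall of the target.

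The first bases of the transcripts are shown for the genes called in more than 1 line, with RPL21 and RPL38 beside them, because the TOP tract is the feature the family is best known for. Each window holds 10 bases before and 20 bases from the annotated start, read from the RefSeq promoter table (GRCh38.p14). Capitals mark a pyrimidine tract, defined as a C at the start or within 5 bases after it and at least 4 further pyrimidines. RPL11 has 2 annotated starts, of which that with the longer tract is shown.
RPL11, chr1:23691796-23691825, plus strand: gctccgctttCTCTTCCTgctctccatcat
RPL29, chr3:51995876-51995905, minus strand: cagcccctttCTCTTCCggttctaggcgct
RPL21, chr13:27251548-27251577, plus strand: ccgcctctttCCTTTCggccggaaccgcca
RPS16, chr19:39435930-39435959, minus strand: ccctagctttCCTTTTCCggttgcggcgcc
RPL38, chr17:74203668-74203697, plus strand: aagtctcgttCTTTTTCgtccttttccccg
RPL17, chr18:49492446-49492475, minus strand: ttccctaagcagcctgaggtgagtgtttct
RPS26, chr12:56041908-56041937, plus strand: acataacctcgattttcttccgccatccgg
The genes with a called fall in this set, RPL11, RPL29 and RPL21, begin with tracts of 8, 7 and 6 bases. Among those with a called rise, RPS16 and RPL38 begin with tracts of 8 and 7 bases, while the RPL17 and RPS26 windows hold no tract by this rule. In the RPS26 window a C with 4 further pyrimidines begins just past the limit of 5 bases, so its class depends on that limit.

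In BL-41 the ribosomal protein genes had mostly positive fold changes, of modest size, with a few clear exceptions. Of the 85 members 29 rose (34.1%), where 14.5% of all 16001 genes tested rose. A further 3 members fell (3.53%, against 14.2% of all genes), which left 53 without a call. In either direction 28.7% of all genes were called. The members' median log2 fold change was 0.24, beside 0.02 over all genes, and 72 of 85 were above 0. After length centring, described below, that median was 0.12 and 11 of 85 members rose, where 12.0% of all genes rose. It ended 18 of the 32 calls in BL-41. The share of members that rose was then near that of all genes. Well-expressed genes were called more often: of the 9884 genes whose mean reached 100, to which 83 members belong, 40.7% were called, 1981 up and 2045 down. The 438 other genes whose mean reached 5000 had a median of -0.02, and 70 of them rose while 95 fell. The summed value of the members went from 2542970 to 2982005, from 14.3% to 16.2% of the table's total, a fold of 1.173.

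Called rises in BL-41 lay within a narrow range, from 0.27 for RPS23 to 0.54 for RPL17 on the log2 scale. RPL17, a large-subunit protein at the polypeptide exit tunnel, rose from 30072 to 43842 in the authors' deposited table (0.54, SE 0.123, DESeq2 adjusted p = 0.000117). RPL27A, another large-subunit protein, rose from 46474 to 64413 in the authors' deposited table (0.47, SE 0.123, DESeq2 adjusted p = 0.000996). RPL6 rose from 36029 to 49336 in the authors' deposited table (0.45, SE 0.103, DESeq2 adjusted p = 0.000122). The stalk base RPLP0 rose from 69666 to 94699 in the authors' deposited table (0.44, SE 0.119, DESeq2 adjusted p = 0.00137). These largest rises amount to a gain of 35.9 to 45.8 percent in the arm value.

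The members that fell in BL-41 were RPL29, RPL11 and RPL21, and RPL29 had the largest change of the family in either direction there. RPL29, a large-subunit protein, fell from 31503 to 17573 in the authors' deposited table, a change of -44.2 percent (log2 fold change -0.84, SE 0.143, DESeq2 adjusted p = 1.08e-07). RPL11, which with RPL5 and 5S ribosomal RNA forms part of the large subunit, fell from 42721 to 31481 in the authors' deposited table (-0.44, SE 0.113, DESeq2 adjusted p = 0.000767). RPL21 fell from 20160 to 16077 in the authors' deposited table (-0.33, SE 0.117, DESeq2 adjusted p = 0.0215). Many ribosomal protein genes have near-identical processed pseudogenes, among which RSEM, listed in the submitters' notes, divides reads by estimate, so each single gene's value carries that uncertainty.

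**Figure D1:**
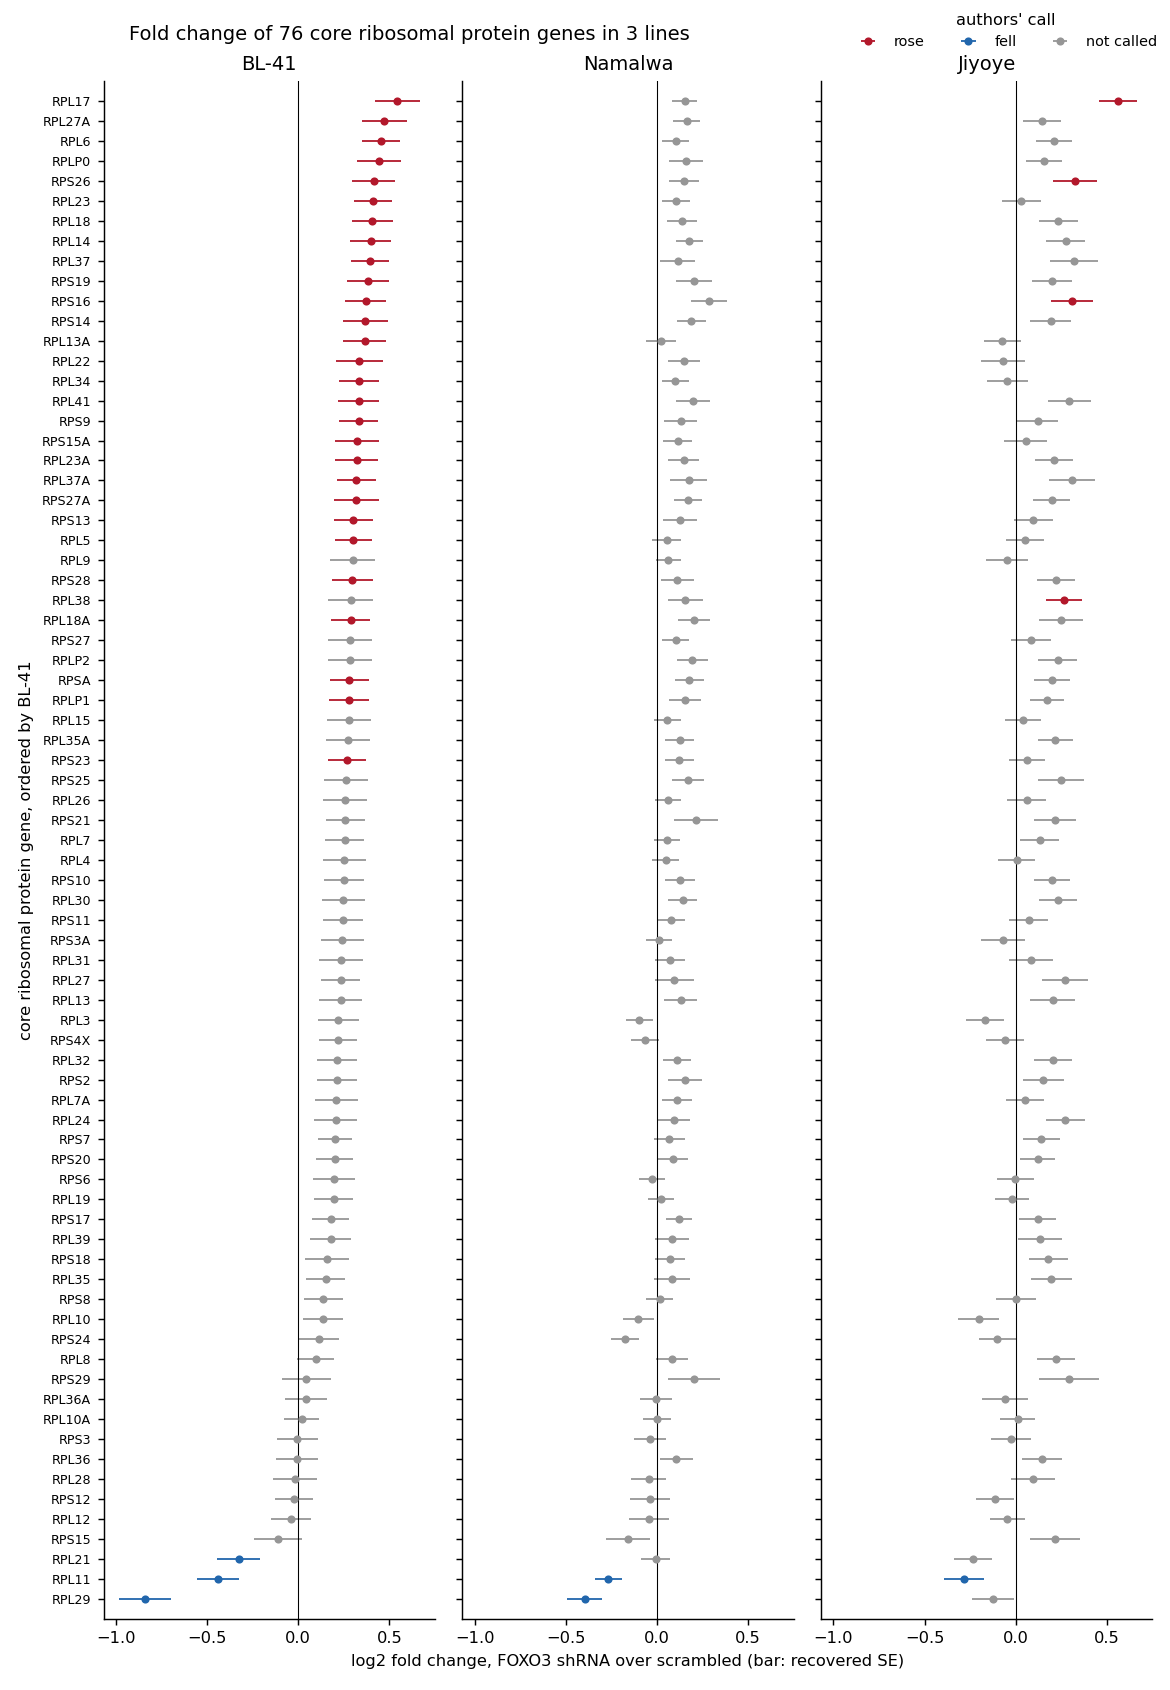
Log2 fold change of 76 of the 77 core ribosomal protein genes (FOXO3 shRNA over scrambled, x axis) in BL-41, Namalwa and Jiyoye, ordered by BL-41, with bars of 1 recovered SE and colours for the DESeq2 call. Over all 77, 68 lie above 0 in BL-41, and RPL11 is called lower in every line, while in Namalwa 63 and in Jiyoye 59 lie above 0, and after length centring these counts were 63, 22 and 35.

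Members of both subunits rose in BL-41. Of the 46 core large-subunit genes, 17 rose and 3 fell, with a median of 0.26. Of the 31 core small-subunit genes, 12 rose and 0 fell (0 also at an unadjusted p under 0.05, DESeq2), with a median of 0.25. The 3 falls, RPL29, RPL11 and RPL21, were thus large-subunit genes, but a difference between the subunits was not tested. Of the acidic stalk proteins that recruit elongation factors, RPLP0 and RPLP1 (0.28) rose in the authors' deposited table and RPLP2 (0.28, DESeq2 adjusted p = 0.0602) was not called. Among small-subunit genes, RPS26 (0.41) and RPS19 (0.38) rose in the authors' deposited table. RPS19 is the gene most often mutated in Diamond-Blackfan anaemia, a failure of red cell production.

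In Namalwa the family moved little, and the members that passed the test fell. Of 84 members 0 rose, where 2.6% of all 15365 genes rose (6.41% were called in either direction), and 13 had a positive fold change at an unadjusted p under 0.05 (DESeq2). The members that fell were RPL11 and RPL29, 2 of 84 (2.38%), where 3.81% of all genes fell. Of the 9671 genes whose mean reached 100 in Namalwa, 9.61% were called. RPL29 fell from 14163 to 10763 in the authors' deposited table for Namalwa (-0.40, SE 0.097, DESeq2 adjusted p = 0.00214). RPL11 fell from 29604 to 24626 in the authors' deposited table for Namalwa (-0.27, SE 0.075, DESeq2 adjusted p = 0.0119). The members' median was 0.10, beside -0.001 over all genes, and became -0.053 after length centring. The median SE of the members was 0.085, and RPS16 had the highest core fold change in the authors' deposited table, 0.28 (from 16387 to 19968, DESeq2 adjusted p = 0.0665). The summed value of the members went from 1925585 to 2024854, a fold of 1.052, from 10.6% to 11.0% of the table's total.

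In Jiyoye 4 members rose and 2 fell. The 4 that rose were 4.71% of the 85 members, where 8.69% of all 16787 genes rose, and the 2 that fell were 2.35%, where 8.7% of all genes fell and 17.4% were called in either direction. Of the 10122 genes whose mean reached 100 in Jiyoye, 25.5% were called. RPL17 rose from 16847 to 24875 in the authors' deposited table for Jiyoye (0.56, SE 0.104, DESeq2 adjusted p = 2.6e-06). RPS26, a small-subunit protein near the messenger RNA exit, rose from 10688 to 13391 in the authors' deposited table for Jiyoye (0.33, SE 0.121, DESeq2 adjusted p = 0.0432). RPS16 rose from 16141 to 19984 in the authors' deposited table for Jiyoye (0.31, SE 0.116, DESeq2 adjusted p = 0.0462). RPL38, for which mouse mutants show altered translation of Hox messages, rose from 5299 to 6367 in the authors' deposited table for Jiyoye (0.27, SE 0.097, DESeq2 adjusted p = 0.0391). RPL17 had the largest fold change of these 4. RPL11 fell from 28298 to 23240 in the authors' deposited table for Jiyoye (-0.28, SE 0.107, DESeq2 adjusted p = 0.0468). The paralog RPL7L1, a factor of ribosome assembly related to RPL7, fell from 3104 to 2360 in the authors' deposited table for Jiyoye (-0.40, SE 0.124, DESeq2 adjusted p = 0.0123). The members' median was 0.12, beside 0.008 over all genes, and became -0.047 after length centring. The summed value of the members went from 2106712 to 2237682, a fold of 1.062, from 12.3% to 12.9% of the table's total.

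**Figure D2:**
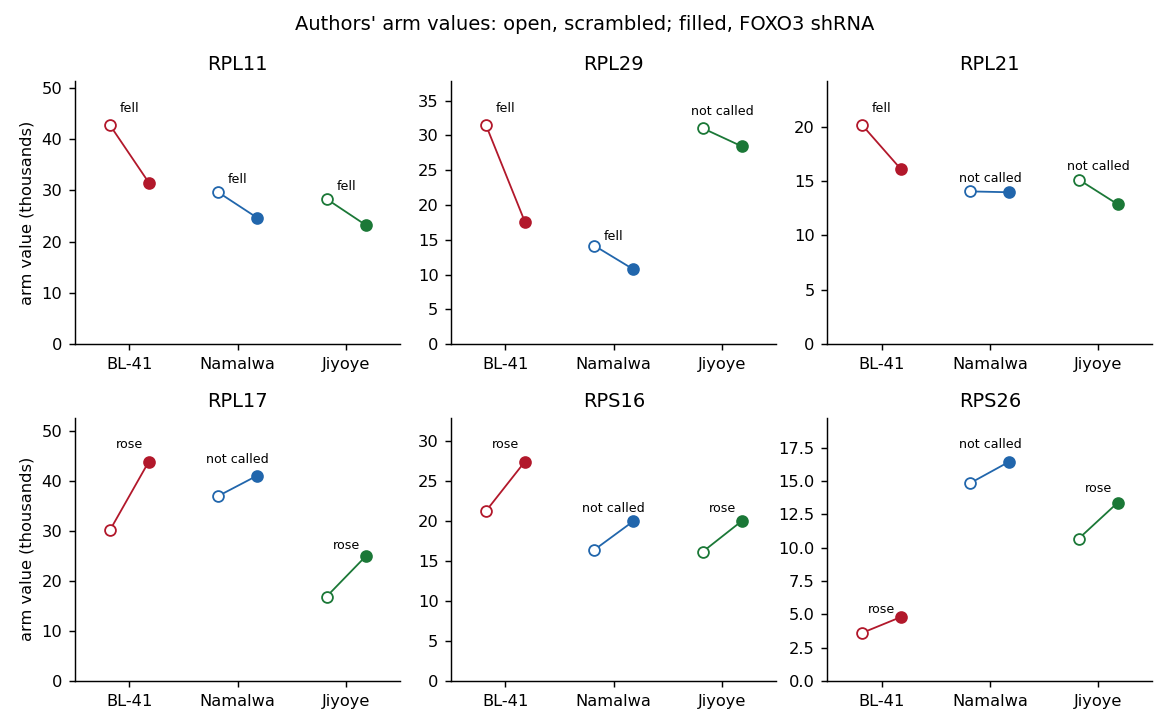
The authors' arm values (in units of 1000, y axis from 0) of RPL11, RPL29, RPL21, RPL17, RPS16 and RPS26 in each line, with open points for scrambled and filled points for FOXO3 shRNA, 1 value per arm without an error, labelled by the DESeq2 call. RPL11 falls in all 3 lines, from 42721 to 31481 in BL-41, and RPL17 rises in BL-41 and Jiyoye.

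Across the lines, 33 of the 77 core genes were called in at least 1 line. Core genes called up and down were 29 and 3 in BL-41, 0 and 2 in Namalwa and 4 and 1 in Jiyoye. Over all genes 28.7%, 6.41% and 17.4% were called in those lines. Of the core genes 0 rose in 1 line and fell in another. With so few calls in Namalwa and Jiyoye, that count cannot show whether the lines agree. Neither count across lines was made over all genes. RPL11 was the member called in the same direction in all 3 lines. RPL29 fell in both BL-41 and Namalwa, and its Jiyoye value was -0.13 in the authors' deposited table (from 31030 to 28434, DESeq2 adjusted p = 0.557). RPL17, RPS16 and RPS26 rose in BL-41 and Jiyoye. In the authors' deposited table for Namalwa, RPL17 had 0.15 (from 36959 to 41034, DESeq2 adjusted p = 0.226) and RPS26 had 0.15 (from 14863 to 16470, DESeq2 adjusted p = 0.376). RPL21 had -0.01 in Namalwa (from 14046 to 13967, DESeq2 adjusted p = 0.986) in the authors' deposited table. In Jiyoye the authors' deposited table gave RPL21 -0.23 (from 15133 to 12858, DESeq2 adjusted p = 0.0939). By sign alone, 56 of 77 core genes were above 0 in all 3 lines, and 19 were after length centring. The genes below 0 in all 3 lines were RPL11, RPL12, RPL21, RPL29, RPS12 and RPS3, of which RPL12, RPS12 and RPS3 were not called in any line.

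The fold changes of single members were mostly not distinguishable between lines. Differences in fold change were examined with a z test, adjusted over all genes by the Benjamini-Hochberg method. It found 0 of 84 members between BL-41 and Namalwa, where 7.01% of all genes passed, and 11 members had an unadjusted p under 0.05 by that z test. BL-41 had the higher fold change for 75 of 84 members, with a median difference of 0.14. Between BL-41 and Jiyoye 1 of 85 members passed the z test, where 6.25% of all genes passed, and the median difference was 0.09. That member was RPL29, whose fold change in BL-41 minus that in Jiyoye was -0.72 (SE 0.183, 95% interval -1.07 to -0.36, adjusted p = 0.00452, z test on DESeq2 values). Between Namalwa and Jiyoye 1 of 84 members passed, where 2.75% of all genes passed, and the median difference was -0.02. This was RPL17, with a difference of -0.41 (SE 0.126, 95% interval -0.66 to -0.17, adjusted p = 0.0422, z test on DESeq2 values). For RPL11 the differences were -0.17, -0.16 and 0.02 for BL-41 minus Namalwa, BL-41 minus Jiyoye and Namalwa minus Jiyoye, with 95% intervals of -0.44 to 0.09, -0.46 to 0.15 and -0.24 to 0.28. Across the 77 core genes, Pearson's r of the fold changes was 0.77 for BL-41 and Namalwa, 0.53 for BL-41 and Jiyoye and 0.71 for Namalwa and Jiyoye, beside 0.54, 0.44 and 0.45 over all genes. The lines share no libraries, but these points share gene length and expression level between lines.

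Most ribosomal protein messages are short, and the fold changes of other short genes moved as well. The core genes had a median length of 719 bases in the deposited tables, from RPS27 (378 bases in BL-41) to RPL27A (4906), and 60 of 77 were at most 1000 bases. Other genes whose mean reached 1000 had median lengths of 3716, 3576 and 3573 bases in BL-41, Namalwa and Jiyoye. Among such other genes of at most 1000 bases, the median fold change was 0.13 in BL-41 (114 genes), 0.16 in Namalwa (153) and 0.19 in Jiyoye (149). The 61 members of that length had medians of 0.25, 0.10 and 0.14, so they lay above other short genes in BL-41 and below them in Namalwa and Jiyoye. Among the short genes of BL-41, 32.8% of members and 21.9% of other genes rose. In Namalwa 0 of 61 members and 13.1% of other short genes rose, and in Jiyoye 4.92% and 20.1%.

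**Figure D3:**
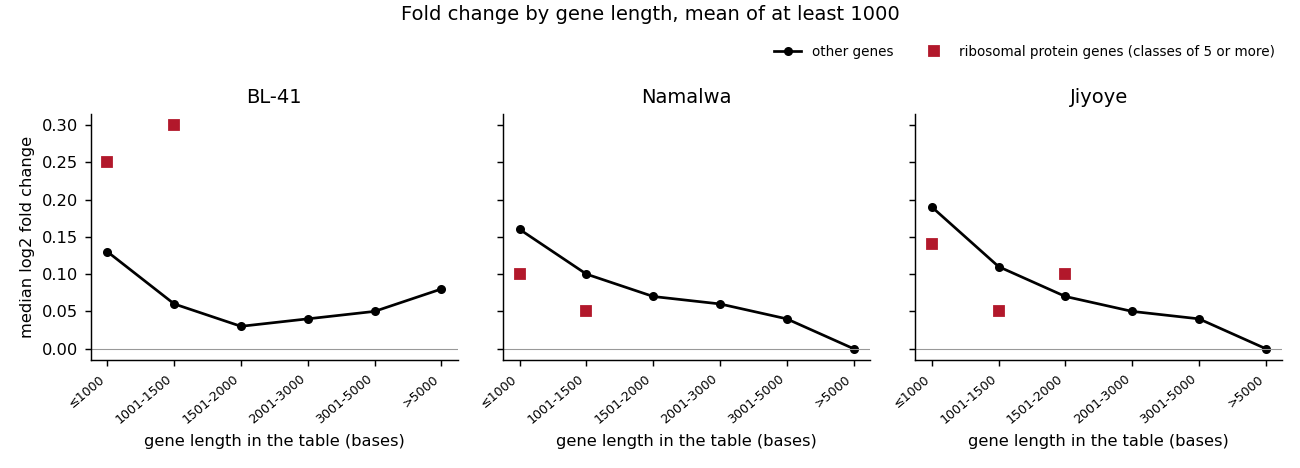
Median log2 fold change (y axis) by class of gene length in the tables (x axis, bases) for other genes (line) and ribosomal protein genes (squares, classes of 5 or more), both limited to means from 1000 upward. At lengths of at most 1000 bases the ribosomal protein genes lie above other genes in BL-41 (0.25 and 0.13) and below them in Namalwa (0.10 and 0.16) and Jiyoye (0.14 and 0.19).

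Length centring subtracts, from each gene, the median fold change of other genes of its length class, and was added after the data were seen. It left 11 members that rose and 4 that fell in BL-41, with 0 and 4 in Namalwa and 1 and 8 in Jiyoye, with p recomputed from the recovered SE. Over all genes it gave 12.0% rising and 16.6% falling in BL-41, 1.64% and 5.17% in Namalwa, and 7.11% and 10.7% in Jiyoye. For BL-41, Namalwa and Jiyoye the family's medians became 0.12, -0.053 and -0.047. RPL11 fell in all 3 lines after length centring (adjusted p = 7.21e-06, 2.44e-06 and 0.000188, z test on DESeq2 values), and RPL29 also fell in all 3 (5.29e-10, 1.8e-06 and 0.0347). RPL17 rose after length centring in BL-41 (adjusted p = 0.00457, z test on DESeq2 values) and Jiyoye (0.00398). RPS26 rose in BL-41 but not in Jiyoye, and RPS16 and RPL38 passed in neither line. Within the core genes, Pearson's r of fold change with length was 0.13, -0.09 and -0.18 in BL-41, Namalwa and Jiyoye (77 genes, which share libraries). What moves short genes in these libraries was not tested.

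**Figure D4:**
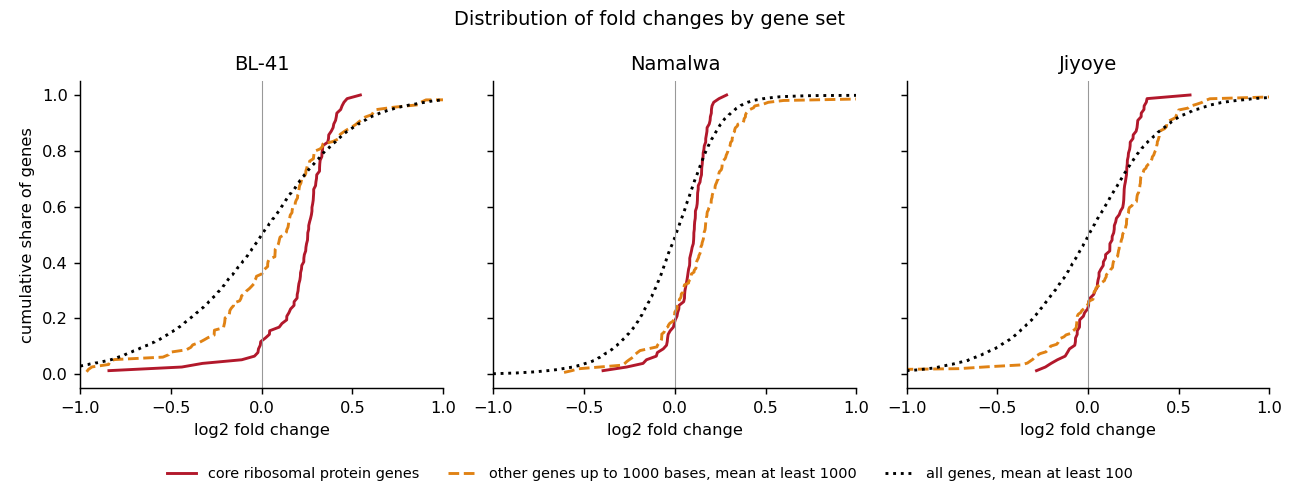
Cumulative share of genes (y axis) by log2 fold change (x axis, cut at -1 and 1) for the 77 core ribosomal protein genes, other genes of at most 1000 bases whose mean reached 1000, and all genes whose mean reached 100. The core curve is steeper than the others, with medians of 0.25, 0.10 and 0.14 for BL-41, Namalwa and Jiyoye, where the other short genes have medians of 0.13, 0.16 and 0.19, so after length centring the family's sign turned in Namalwa and Jiyoye.

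A pyrimidine tract at the annotated start is common in the family, and called genes were found both with and without one there. RefSeq start sequences matched 62 of the 77 core genes (68 of the 85 members), and 50 of the 62 (80.6%) held a tract by the rule given above, beside 17.0% of 27305 genes and 20.8% of 9032 other expressed genes. The 12 core genes without one by this rule were RPL15, RPL17, RPL19, RPL27, RPL3, RPL6, RPL9, RPS15, RPS26, RPS29, RPS4X and RPS7. The starts used in these cells were not measured and may differ from the annotated ones. A gene without a tract here may therefore still have a TOP message. In BL-41 19 of 50 genes with a tract rose and 3 fell, with a median of 0.26. Of the 12 without a tract 3 rose (RPL17, RPL6 and RPS26), with a median of 0.23. Over all genes 14.5% rose and 14.2% fell in BL-41. After length centring RPL13A, RPL18, RPL27A and RPLP0 were the genes with a tract that still rose there, beside the same 3 without. In Jiyoye 2 of 50 with a tract rose (RPL38 and RPS16) and 2 of 12 without (RPL17 and RPS26). Over all genes 8.69% rose in Jiyoye, and only RPL17 among these members still rose after length centring. In Namalwa the medians were 0.11 and 0.06. These counts are a description without a test. A transcript measurement does not show how the messages were translated.

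In the 300 bases from 250 before to 50 after the start, on both strands, the forkhead motif GTAAACA was found in 0 of 62 core genes, beside 4.19% of all promoters and 3.57% of those of other expressed genes. The E-box CACGTG, which MYC can bind, was found in 4 (RPL13A, RPL19, RPS19 and RPS28), 6.45% beside 8.77% of all promoters and 13.1% of those of other expressed genes. The ETS motif CCGGAAG was found in 22 (35.5%), beside 12.2% of all promoters and 24.3% of those of other expressed genes. A match or its absence describes these letters in this window and is no measurement of binding.

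Among the 10 ribosomal proteins listed here as binding MDM2, the 2 partners of the 5S particle moved apart in BL-41. There RPL5 rose from 17250 to 21269 in the authors' deposited table (0.30, DESeq2 adjusted p = 0.0121), while RPL11 fell. RPL23 rose from 22129 to 29428 in the authors' deposited table for BL-41 (0.41, SE 0.104, DESeq2 adjusted p = 0.00062). RPS14 (0.37) and RPS27A (0.32) also rose in the authors' deposited table for BL-41, so 4 rose, 1 fell and 5 were not called, where 14.5% of all genes rose and 14.2% fell. After length centring RPS14 (adjusted p = 0.143) and RPS27A (adjusted p = 0.285) were no longer called (z test on DESeq2 values). In Namalwa and Jiyoye 0 of the 10 rose (2 and 0 above 0 at an unadjusted p under 0.05, DESeq2) and RPL11 fell. Over all genes 2.6% and 8.69% rose and 3.81% and 8.7% fell in those lines. RPL5 had 0.05 in both those lines in the authors' deposited table (from 26627 to 27624 and from 28721 to 29772). RPL23 had 0.10 and 0.03 in the authors' deposited table for Namalwa and Jiyoye, and neither was called. Of 21 p53 target genes, 7 rose and 2 fell in BL-41, 0 rose (1 at an unadjusted p under 0.05, DESeq2) and 1 fell in Namalwa, and 0 rose (4 unadjusted, DESeq2) and 3 fell in Jiyoye, with medians of 0.15, -0.05 and -0.01. Over all genes 28.7%, 6.41% and 17.4% were called in either direction. CDKN1A, the p21 cell cycle inhibitor, was 1 of the 2 that fell in BL-41, against 7 that rose. It had -0.56 there in the authors' deposited table (DESeq2 adjusted p = 0.00421).

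Of the 18 ribosomal genes listed here as mutated in Diamond-Blackfan anaemia, 5 rose in BL-41 (RPL5, RPS19, RPS28, RPL18 and RPS26) and RPL11 fell. These were 27.8% and 5.56%, where 14.5% and 14.2% of all genes did, and the list's median was 0.26. Of these rises, RPS19 (adjusted p = 0.0797) and RPS28 (adjusted p = 0.31) were lost after length centring (z test on DESeq2 values). In Namalwa 0 rose (1 at an unadjusted p under 0.05, DESeq2) and RPL11 fell, with a median of 0.10, where 2.6% of all genes rose and 3.81% fell. In Jiyoye RPS26 rose and RPL11 fell, with a median of 0.17, where 8.69% of all genes rose and 8.7% fell. The rise of RPS26 in Jiyoye was lost after length centring (adjusted p = 0.249, z test on DESeq2 values). FAU, in which a ribosomal protein is made as a fusion outside the symbol rule, rose in BL-41, with 0.43 in the authors' deposited table (DESeq2 adjusted p = 0.00018). FAU also rose in Namalwa, with 0.32 in the authors' deposited table (DESeq2 adjusted p = 0.03). In Jiyoye FAU had 0.18 and was not called. FAU is short, listed at 579 bases in BL-41. Other genes of at most 1000 bases whose mean reached 1000 had medians of 0.13 in BL-41 and 0.16 in Namalwa. Whether the FAU calls hold after length centring is not given here.

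The level of each gene in the scrambled controls was compared as its share of the family's summed scrambled value, since the tables were normalized separately. Shares were similar across the lines, with a median ratio of highest to lowest of 1.23 and 61 of 77 core genes under 1.5. RPS26 differed most, with 0.142%, 0.772% and 0.507% for BL-41, Namalwa and Jiyoye, a ratio of 5.45. RPL17 had 1.18%, 1.92% and 0.8%. RPS29 (0.358%, 0.157% and 0.325%), RPL8 (1.78%, 2.22% and 1.03%) and RPL5 (0.678%, 1.38% and 1.36%) also differed by a ratio over 2. With 1 value per arm these differences have no replicate check. Per kilobase of the length in the table, RPS2, RPS6 and RPS18 stood highest in BL-41, RPS2, RPS27 and RPS6 in Namalwa, and RPS6, RPS2 and RPL13A in Jiyoye. In BL-41 the scrambled value per kilobase ran from 149960 for RPS2 to 2995 for RPS26, and RPL22 and RPL13 stood next to last there. RPL27A, RPS23 and RPL13 or RPL22 were lowest in Namalwa and Jiyoye, and their listed lengths of 2099 to 4906 bases lower such a value.

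**Figure D5:**
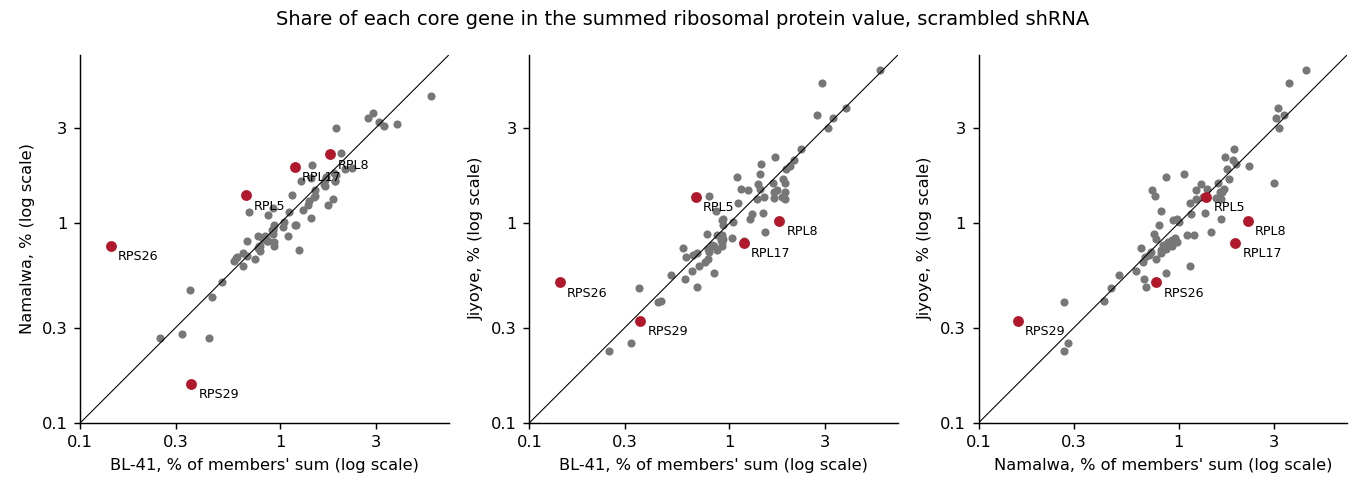
Share of each core gene in the summed scrambled value of the ribosomal protein genes (percent, log scales), 1 pair of lines per panel, with the line of equal shares. Most genes lie near the line, and RPS26 (0.142% in BL-41, 0.772% in Namalwa), RPL17, RPS29, RPL8 and RPL5 are marked.

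The paralogs were a minor share of each pair. Per length, RPL36AL made up 10.9%, 9.6% and 20.5% of its pair with RPL36A in BL-41, Namalwa and Jiyoye with scrambled shRNA, and RPL22L1 made up 3.85%, 1.94% and 10.6% of its pair with RPL22. RPL7L1 made up 2.98%, 4.08% and 2.86% of its pair with RPL7, RPL39L 2.31%, 3.86% and 1.19% of that with RPL39, and RPL26L1 1.2%, 1.34% and 1.12% of that with RPL26. RPS27L, a p53 target related to RPS27, made up 0.27%, 0.321% and 0.843%. RPL3L, of muscle, and RPL10L, of testis, were near 0, with scrambled values in the authors' deposited table of at most 1.57 and 0.629. None of the paralogs was called in BL-41 or Namalwa (0 and 1 at an unadjusted p under 0.05, DESeq2), and RPL7L1 fell in Jiyoye. Its parent RPL7 had 0.13 there in the authors' deposited table and was not called. RPL22, which represses RPL22L1 in mouse cells, rose in BL-41 in the authors' deposited table (0.34, DESeq2 adjusted p = 0.0337). That call was lost after length centring (adjusted p = 0.066, z test on DESeq2 values). RPL22L1 had -0.21 in BL-41 in the authors' deposited table and was not called (DESeq2 adjusted p = 0.252). A link between these genes was not tested. RPL39L had -0.34 in BL-41 and 0.47 in Jiyoye in the authors' deposited table, neither called, and the difference of -0.81 did not pass (adjusted p = 0.0533, z test over DESeq2 values).

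Readthrough transcripts that share exons with members were listed as genes of their own. RPS10-NUDT3 rose from 122 to 534 in BL-41 (2.13, DESeq2 adjusted p = 3.14e-21) and from 144 to 288 in Jiyoye (1.00, DESeq2 adjusted p = 7.73e-05) in the authors' deposited table. RPS10 itself was not called in either line. RPL36A-HNRNPH2 rose in BL-41 (1.22, DESeq2 adjusted p = 2.53e-11) and fell in Jiyoye (-0.61, DESeq2 adjusted p = 0.00318) in the authors' deposited table, while RPL36A was not called. RPL17-C18orf32 was not called in any line and reached at most 201 in the authors' deposited table, far below RPL17. Reads of shared exons may have been split between these genes.

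Other genes of translation were counted in the same way, beside the shares of all genes that rose and fell, 14.5% and 14.2% in BL-41, 2.6% and 3.81% in Namalwa, and 8.69% and 8.7% in Jiyoye. Among 20 measured elongation factor and other TOP message genes, 8 rose and 2 fell in BL-41, 0 rose (1 at an unadjusted p under 0.05, DESeq2) and 1 fell in Namalwa, and 1 rose and 1 fell in Jiyoye, with medians of 0.18, -0.02 and -0.05. IPO7, a nuclear import receptor, EEF1B2 and EEF1G, subunits of elongation factor 1, and VIM, an intermediate filament protein, rose in BL-41 by 0.86, 0.45, 0.44 and 0.57 in the authors' deposited table (DESeq2 adjusted p from 2.33e-08 to 0.000699). IPO7 also rose in Jiyoye, by 0.47 in the authors' deposited table (DESeq2 adjusted p = 0.00906). HNRNPA1, an RNA-binding protein with a TOP message, fell in all 3 lines in the authors' deposited table (-0.29, -0.33 and -0.65, DESeq2 adjusted p = 0.016, 0.00482 and 2.97e-07). Of 28 initiation factors, 5 rose and 3 fell in BL-41, with 1 and 2 in Namalwa and 2 and 3 in Jiyoye. EIF2B2, a subunit of the exchange factor for eIF2, fell in all 3 lines in the authors' deposited table (-1.07, -0.75 and -0.65, DESeq2 adjusted p from 3.13e-12 to 0.00171). Of 12 regulators of TOP messages, 2 rose and 2 fell in BL-41, with 1 and 1 in Namalwa and 2 and 1 in Jiyoye. TIA1, which can repress TOP messages, fell in all 3 lines in the authors' deposited table (-0.82, -0.29 and -0.82, DESeq2 adjusted p from 3.96e-12 to 0.0349). MYC fell in BL-41 in the authors' deposited table (-0.75, DESeq2 adjusted p = 0.000131) and was not called in Namalwa (0.15) or Jiyoye (0.00). The relation of MYC to the ribosomal protein genes was not tested.

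Of 29 genes for ribosome assembly and ribosomal protein chaperones, 7 rose and 2 fell in BL-41, 4 rose and 0 fell in Namalwa (0 at an unadjusted p under 0.05, DESeq2), and 3 rose and 0 fell in Jiyoye (1 unadjusted, DESeq2). BRIX1, an assembly factor of the large subunit, rose in all 3 lines in the authors' deposited table (0.50, 0.32 and 0.49, DESeq2 adjusted p = 0.000528, 0.0143 and 0.00433). Of 78 mitochondrial ribosomal protein genes, 9 rose and 11 fell in BL-41, against 3 and 1 in Namalwa and 8 and 5 in Jiyoye, with medians of 0.06, 0.15 and 0.06. Those that rose were 11.5%, 3.85% and 10.3% and those that fell 14.1%, 1.28% and 6.41%, beside the shares of all genes given above. MRPS25 fell in all 3 lines in the authors' deposited table (-0.90, -0.51 and -0.85, DESeq2 adjusted p from 2.34e-08 to 0.00178).

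Markers of the cell type were present, and some moved with the groups. All 10 B cell markers were measured in each line. In BL-41 0 of them rose (0 at an unadjusted p under 0.05, DESeq2) and 5 fell (CD38, CD79B, MME, BLK and CD22). In Namalwa CD38 fell, and in Jiyoye CD79A and CD79B rose. For comparison, the shares of all genes called higher were 14.5% (BL-41), 2.6% (Namalwa) and 8.69% (Jiyoye). Those called lower were 14.2%, 3.81% and 8.7%, in the same order. Among genes whose mean reached 100, calls in either direction made up 40.7%, 9.61% and 25.5%. Among the 8 myeloid markers measured in BL-41, 3 rose (CD68, CD14 and LYZ), with the summed value going from 184.7 to 346.9, and CD14 rose in Jiyoye (sum from 338.5 to 372.9). None rose in Namalwa (0 at an unadjusted p under 0.05, DESeq2, sum from 187.2 to 189.7). The sums of the T and NK cell, erythroid and fibroblast markers were at most 87.7, 3.58 and 173.6 in any arm, and none of these was called. The part of these markers in the ribosomal protein results was not tested.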

How the data were processed

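Messenger RNA of 18 libraries was compared in 3 lines, 3 libraries per arm. The labels' protocols state mRNA enrichment by oligo-dT. Per the series' design text, the authors used SOAPnuke for filtering. The submitters' processing notes list Bowtie2, RSEM, DESeq2 and hg38 without versions, as used by the authors. In each deposited table the authors give 1 signal value per arm, scaled for library size and moderated. Values per library are not in these tables, so depth per library was not used here. Arm values are not plain means: the ratio of the arms equals the deposited fold change (largest difference 1.39e-14). The deposited log2 fold changes and DESeq2 p-values are the authors' own. The gene length, an other unit, was also deposited. Recomputed Benjamini-Hochberg values equalled the deposited adjusted p-values (largest difference 2.55e-15). No per-sample column of other samples was present.

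The count test planned for values per library could not be run, and calls are the authors' at an adjusted p under 0.05. The SE is the fold change divided by the normal deviate that p corresponds to. Differences between lines used a two-sided z test, adjusted over all genes in both tables. It was tested on simulated data. The members and gene lists were chosen with earlier results of these data known. Named genes are FOXO3, members called alike in all lines, the 4 largest called rises and falls per line, members differing between lines, paralogs with their parents, RPL5, RPL11 and RPL23, the 3 highest and lowest core genes by level, and up to 4 genes per list by smallest adjusted p. Some genes that this rule or the lists take are not reported here. The other members and genes named were chosen after their values were seen. Start sequences and positions are RefSeq's (GRCh38.p14). Alternatives were a threshold of 0.01, genes with a mean of at least 100, median centring, core genes and length centring. Software was matplotlib 3.10.9, scipy 1.17.1, pandas 2.3.3, numpy 2.4.6 and Python 3.11.15.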

Additional observations from a re-analysis of the deposited data

Results flagged for a closer look

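The fold change of RPL29 in BL-41 minus that in Jiyoye was -0.716 (SE 0.183, adjusted p = 0.00452, z test on the authors' DESeq2 values), with RPL29 fold changes of -0.84 in BL-41 and -0.13 in Jiyoye. The fold change of RPL17 in Namalwa minus that in Jiyoye was -0.411 (SE 0.126, adjusted p = 0.0422, z test on the authors' DESeq2 values), with RPL17 fold changes of 0.15 in Namalwa and 0.56 in Jiyoye. Each was singled out because the effect of FOXO3 shRNA differed between a pair of lines by a test of the difference itself. The RPL17 difference was not past the test after length centring.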

How the results depend on the processing

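At an adjusted p under 0.01 (DESeq2), 15 members were called in BL-41 (13 up, 2 down), with 1 each in Namalwa and Jiyoye, and 0 differed between Namalwa and Jiyoye by the z test. Adjusted again over genes whose mean reached 100, the calls were 11 in Jiyoye (9 up, 2 down), 40 in BL-41 and 3 in Namalwa, and 2 members differed between BL-41 and Jiyoye (RPL29 and RPL39L). Length centring, chosen after seeing the data, gave 15 calls in BL-41 (11 up, 4 down), 4 in Namalwa and 9 in Jiyoye (1 rose, 8 fell), and medians of 0.124, -0.053 and -0.047. Of the main calls 14, 2 and 3 remained in BL-41, Namalwa and Jiyoye. After it 2 members differed between BL-41 and Namalwa (RPL17 and RPL6), 2 between BL-41 and Jiyoye (RPL29 and RPL13A) and 0 between Namalwa and Jiyoye. The cause was not tested. Median centring ended 1 call, RPS16 in Jiyoye (adjusted p = 0.0501, z test on DESeq2 values), and leaving out the paralogs ended none but that of RPL7L1. With at least 6 pyrimidines, 62.9% of core starts held a tract, and 74.2% at the exact start. No paired analysis was possible because the tables hold 1 value per arm and no value per library, and leaving out each replicate was not run for the same reason. The depth behind single values is unknown. The recovered SE assumes a normal test statistic, and moderation understates the changes of low genes such as RPL3L and RPL10L.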
